A study of Mus musculus with 48 samples.

Results

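The genes described here are 8 claudins, Cldn2, Cldn3, Cldn4, Cldn7, Cldn8, Cldn10, Cldn16 and Cldn19, and 2 tight junction scaffolds, Tjp1 (the protein zonula occludens-1) and Cgn (cingulin). They were chosen by name, by matching Ensembl identifiers to gene symbols, and the rule uses no measured value, but the list itself was drawn up with earlier results of these data known. In the GRCm38 genome Cldn3 (chr5:134986214-134987472) and Cldn4 (chr5:134945119-134946934) are neighbours, while Cldn2 lies at chrX:139800828-139811386, Cldn7 at chr11:69964779-69967885, Cldn8 at chr16:88560828-88563183, Cldn10 at chr14:118787908-118875489, Cldn16 at chr16:26463135-26482765, Cldn19 at chr4:119255414-119262438, Tjp1 at chr7:65296165-65527781 and Cgn at chr3:94760069-94786492. All 10 had RNA-seq values, among 12728 genes, and 8 had ribosome footprint values, among 12622 genes. Footprints of Cldn4 and Cldn8 are not analysed here. The 8 genes with both values were among the 11863 genes tested, which had a median of at least 0.5 RPKM (reads per kilobase of coding sequence, scaled to the size of the library) in both assays.

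The kidneys came from 48 male C57BL/6JRj mice aged 11 to 12 weeks, all kept under 12 h of light and 12 h of dark, with no treatment or genotype named in the labels. Organs were collected at 12 timepoints spaced 2 h apart, from Zeitgeber time ZT00 (lights on) through ZT12 (lights off) to ZT22. At each time there were 2 pools with 2 mice in each, so the 24 pools, not single mice, are the replicates. The lysate of each pool gave 1 RNA-seq library, which measures transcript abundance, and 1 RPF-seq library of ribosome-protected fragments, which measures translation. Dividing the footprint value of a pool by its transcript value gives the translation efficiency (TE).

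Tight junctions seal the space between neighbouring epithelial cells, and claudins are the membrane proteins that set which ions and how much water pass through it. In the kidney the claudin set changes along the tubule. Cldn2 forms a cation and water channel of the proximal tubule, Cldn10 has a proximal isoform and an isoform of the thick ascending limb, Cldn16 and Cldn19 pair in the thick ascending limb for calcium and magnesium reabsorption, and Cldn3, Cldn4, Cldn7 and Cldn8 line the distal segments and collecting duct. Tjp1 binds the tails of claudins through its PDZ domains and ties them to actin, and Cgn is a cytoplasmic plaque protein that binds Tjp1.

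The tail that meets the scaffold is written in the last codons of each claudin. All 8 claudins ended in a codon that starts with GT, which encodes valine, in the GENCODE vM21 coding sequences on the GRCm38 genome. The ends of the most abundant claudin and of the claudins of the thick ascending limb are shown, 27 coding bases and the stop codon, with the final amino acid codon in capitals. Cldn19 is shown for both of its annotated coding sequences, of 672 and 633 bases, since their ends differ. The deposited value is 1 per gene, and the length that gave whole reads for Cldn19, 679 bases, was longer than either. Its coding sequence also overlaps the antisense gene Gm12927 on the opposite strand, whose reads are not analysed here.
Cldn2 (chrX:139809371-139809400, plus strand): aactcatacagcctgactgggtatGTGtga
Cldn10 (chr14:118874286-118874315, plus strand): aaacagtttgataaaaatgcctatGTCtaa
Cldn16 (chr16:26482622-26482651, plus strand): aaaatgtatgctgtagacaccagaGTAtaa
Cldn19, longer coding sequence (chr4:119259736-119259765, plus strand): gcctcggtcaagggccccctgggtGTGtaa
Cldn19, shorter coding sequence (chr4:119258941-119258970, plus strand): ccctcaactgctgccagagagtacGTCtga

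Cldn10 is transcribed from alternative first exons, and its value covers all of them. The length that turned its RPKM into whole reads was 907 bases, which equals the number of positions that are coding in any of its isoforms. Of these, 365 were shared by every isoform and 220 belonged to the isoform of the downstream start alone. The first 30 coding bases of both starts are shown with the start codon in capitals, because the levels below cannot be split between them.
Cldn10, upstream start (chr14:118788157-118788186, plus strand): ATGtccagggcacagatctcagctctggtg
Cldn10, downstream start (chr14:118854990-118855019, plus strand): ATGgctagcacggccttggaaatcgtcgcc

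RefSeq promoters on GRCm38.p6, from 250 bases before to 50 bases after each annotated start, were found for 9 of the 10 genes (12 promoters). Both strands were searched for the clock-related motifs CACGTG (E-box), CACGTT, TTATGTAA and TTATGCAA (D-box) and TAGGTCA (the ROR element). Each of 4 motifs occurred in 1 of the 12 promoters, and TTATGCAA occurred in none. Over all 32851 promoters of that length, 7.15% held CACGTG, 4.68% CACGTT, 0.938% TTATGTAA, 0.743% TTATGCAA and 2.61% TAGGTCA. The windows of Cgn and of the upstream start of Cldn10 are shown, motif in capitals, as 3 of the 4 matches. The remaining match, TAGGTCA, was in the promoter of Cldn7, whose mRNA did not pass the rhythm test, and none of the motifs was found for Cldn3 or Cldn16, whose mRNA did. The E-box began 185 bases before the start of Cgn, the D-box letters 154 and the CACGTT match, on the reverse strand, 137 bases before that of Cldn10. A match of letters is a description of the sequence, and binding was not measured.
Cgn promoter, E-box (chr3:94786649-94786678, minus strand): ccccaccagtcCACGTGaccccaccgcccc
Cldn10 promoter, D-box (chr14:118787706-118787735, plus strand): cgtgactccacTTATGTAAagcctcaacaa
Cldn10 promoter, reverse strand of CACGTT (chr14:118787723-118787752, plus strand): aaagcctcaacAACGTGtaaacgtaaagaa

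The size of each library was recovered from the steps of its RPKM values, as the effective number of reads after the scaling of the authors. It came to 9860000 to 33580000 reads in RNA-seq (median 16490000) and 15560000 to 35010000 in RPF-seq (median 22200000). Libraries of the light phase were deeper, with RNA-seq medians of 18790000 against 13400000 reads and RPF-seq medians of 26090000 against 20190000. The RPF-seq library of ZT04 replicate 2 stood apart, with 162 genes at 0 against at most 23 in any other library. Tests whose outcome changed without it are given both ways, as are full ranges and ratios whose ends it set. The groups of libraries near a peak or trough include it where they cover ZT04. The lowest gene by reads was Cldn16, with a median of 100 RNA reads and 130 footprint reads per library. Cldn2 had 2952 and 7574. In whole kidney, fewer cells of a type and less RNA per cell cannot be told apart. Every marker listed for the proximal tubule, thick ascending limb, distal convoluted tubule, principal cell and intercalated cell was above 0 in every library. So was every urothelium, leukocyte and erythroid marker that had values. Genes under an RPKM cutoff had been left out beforehand, so this does not test which segments were present. Summed erythroid markers varied between timepoint means by 5.48 times in RNA-seq and 5.91 times in RPF-seq, highest at ZT16. Summed adipose markers varied by 8.54 and 7.62 times, highest at ZT04, and Ucp1 footprints were 0 in 6 libraries. Whether this variation bears on the genes described here was not tested.

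Transcript levels of the claudins spanned a wide range. Cldn2 mRNA was the highest, from 215 to 328 RPKM with a median of 280 over the 24 libraries. Cldn10 followed, from 124 to 235 RPKM with a median of 182. Cldn8, a barrier claudin of the collecting duct, ran from 21.6 to 61.0 RPKM with a median of 38.5, the widest relative range among the claudins. Its libraries did not overlap with those of Cldn10, and Tjp1 came next in the order.

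Tjp1 mRNA ran from 18.8 to 25.8 RPKM (median 22.2), Cldn19 mRNA from 11.8 to 25.3 (median 20.5) and Cldn7 mRNA, of the distal nephron and collecting duct, from 13.6 to 24.5 (median 18.7). These ranges overlapped one another. Below them, Cldn4 mRNA ran from 8.79 to 17.5 RPKM (median 13.6), Cldn3 mRNA from 7.32 to 15.9 (median 9.66) and Cldn16 mRNA from 6.86 to 13.0 (median 9.06). Cgn was the lowest of the 10, from 2.42 to 5.91 RPKM with a median of 3.86.

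Neighbours in the order of mean RNA RPKM were compared within pools by a two-sided sign-flip permutation test with 100000 resamples, adjusted over the 9 pairs. Of these, 7 pairs differed. Cldn2 exceeded Cldn10 by 0.59 ± 0.24 on the log2 scale (mean ± SD, 24 pools), higher in 24 of 24 pools (adjusted permutation p = 1e-05, the smallest possible here). Cldn10 reads were divided by 907 merged bases, while its longest coding sequence has 693 and that of Cldn2 has 690. Its RPKM is therefore lower than any single isoform length would give, in footprints too, and the test does not cover this. Median RNA reads per library were 2952 for Cldn2 and 2538 for Cldn10. Cldn19 and Cldn7 could not be separated (log2 difference 0.11 ± 0.28, adjusted permutation p = 0.0831), nor could Cldn3 and Cldn16 (0.10 ± 0.48, adjusted permutation p = 0.309, higher in 11 of 24 pools).

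**Figure D1:**
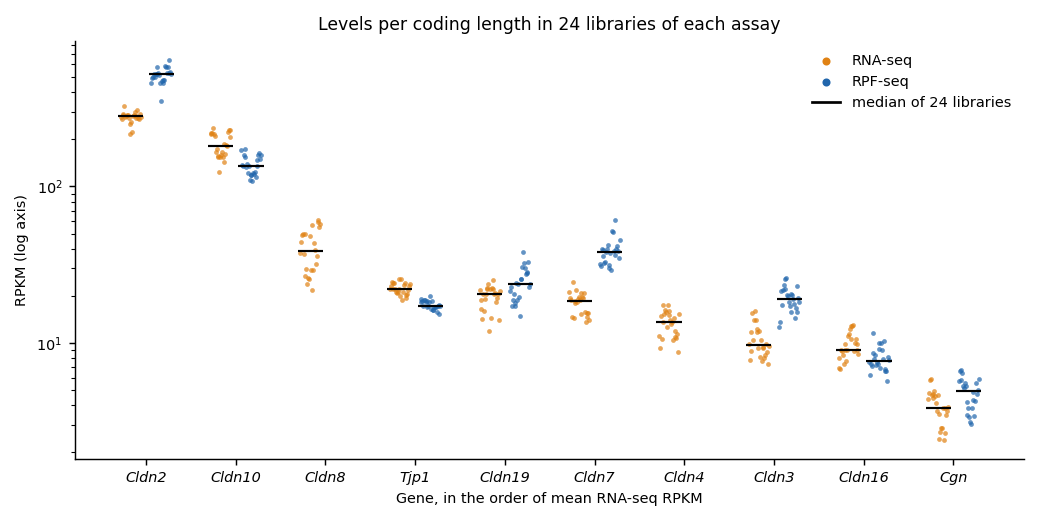
RPKM on a log axis for each of the 10 genes, in the order of mean RNA-seq RPKM, with 1 point per library and the median of 24 libraries as a bar. Cldn2 stands highest in both assays with medians of 280 RPKM in RNA-seq and 518 in RPF-seq, and Cgn lowest with 3.86 and 4.96.

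Footprints kept Cldn2 and Cldn10 on top but changed the order below them. Cldn2 footprints ran from 350 to 643 RPKM with a median of 518, and Cldn10 footprints from 109 to 172 with a median of 136, the highest value being 170 without the ZT04 replicate 2 library. The log2 difference between these neighbours was 1.90 ± 0.22 in footprints (higher in 24 of 24 pools, adjusted permutation p = 1e-05). Cldn7 footprints followed, from 29 to 60.8 RPKM with a median of 38.3.

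Cldn19 footprints ran from 14.9 to 38.1 RPKM (median 23.8), Cldn3 footprints from 12.7 to 25.9 (median 19.2) and Tjp1 footprints from 15.2 to 20.1 (median 17.3). Cldn16 footprints ran from 5.74 to 11.7 RPKM (median 7.68), or to 10.3 without the ZT04 replicate 2 library, and those of Cgn from 3.03 to 6.77 (median 4.96). By the same test 6 of 7 neighbouring pairs differed, and Cldn3 and Tjp1 were not separated (log2 difference 0.11 ± 0.28, adjusted permutation p = 0.0721).

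TE, the footprints per transcript, differed between the claudins. The TE of Cldn7 ran from 1.5 to 3.25 with a median of 2.18, that of Cldn3 from 1.3 to 2.64 (median 1.84) and that of Cldn2 from 1.53 to 2.37 (median 1.85). All 24 pools of these 3 claudins lay above the median gene, whose TE was 0.925 to 0.965 across pools. The other claudins lay lower. The TE of Cldn19 ran from 0.820 to 1.77 (median 1.28), that of Cldn16 from 0.566 to 1.39 (median 0.822), or to 1.09 without the ZT04 replicate 2 library, and that of Cldn10 from 0.619 to 0.880 (median 0.759). The 24 values of Cldn10 did not overlap with those of Cldn2, Cldn3 or Cldn7.

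Against the median gene, 3 of the 8 genes were at least 1.5-fold higher at an FDR under 0.05 and none at least 1.5-fold lower, where 20.6% of all genes tested were higher and 26% lower by the same rule (limma, 24 pools). Cldn7 was higher by 1.17 ± 0.06 on the log2 scale (SE, adjusted p = 2.52e-16), Cldn2 by 0.97 ± 0.03 (adjusted p = 6.06e-22) and Cldn3 by 0.96 ± 0.06 (adjusted p = 2.36e-15). Their percentiles among all genes tested were 96.7, 93.1 and 92.9. Cldn19 (0.38 ± 0.06) and the scaffold Cgn (0.36 ± 0.05) were above the median gene and Tjp1 (-0.26 ± 0.02), Cldn10 (-0.35 ± 0.03) and Cldn16 (-0.18 ± 0.06) below it, each past the FDR but within 1.5-fold. Relative to the mean gene in place of the median gene, Cldn16 was at -0.06 ± 0.06 (adjusted p = 0.338, limma). Of the neighbours in the order of TE, 4 of 7 pairs differed, among them Cldn7 over Cldn3 (log2 difference 0.21 ± 0.35, adjusted permutation p = 0.0148). Cldn7 was higher than Cldn3 in 15 of 24 pools, and without replicate 1 this pair was not separated (adjusted permutation p = 0.235). Cldn3 and Cldn2 were not separated (adjusted permutation p = 0.978), nor were Cldn19 and Cgn (0.978) or Cldn16 and Tjp1 (0.292).

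**Figure D2:**
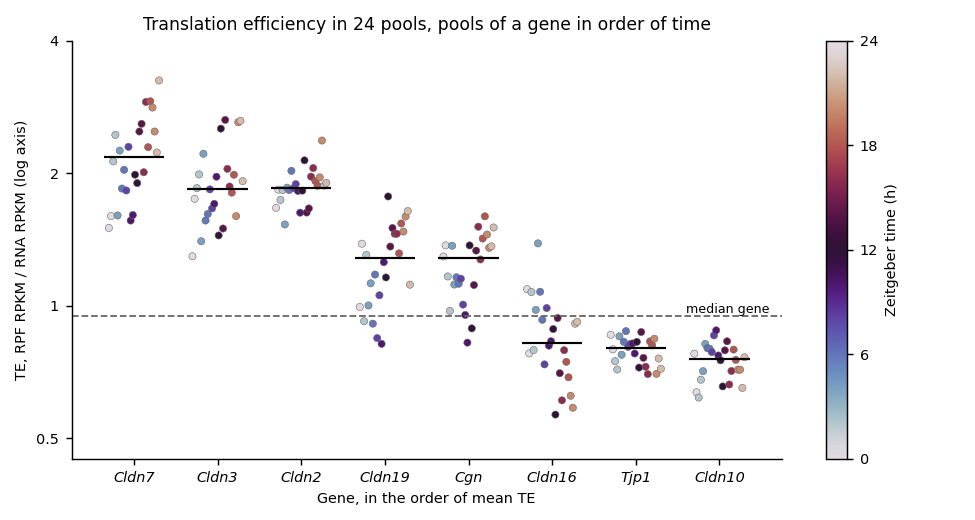
TE (RPF RPKM divided by RNA RPKM, log axis) in each of 24 pools for the 8 genes with both assays, coloured by Zeitgeber time, with the median as a bar and the median gene as a dashed line. Cldn7, Cldn3 and Cldn2 lie above the dashed line in every pool, and Tjp1 and Cldn10 below it in every pool.

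The daily course was tested with limma as a 24-h cosine curve in each assay. Fold is the fitted peak over the fitted trough on the log2(RPKM + 0.1) scale, which understates changes of low genes. With the FDR under 0.05 and this fold at 1.5 or more, the mRNA of 4 of the 8 genes was rhythmic (Cldn3, Cldn10, Cldn16 and Cgn), against 10.2% of all genes tested. At the FDR alone the same 4 of 8 passed, where 48.6% of all genes passed. For footprints 2 of 8 were rhythmic (Cldn19 and Cgn), against 7.58% of all genes. Cldn3, Cldn10 and Tjp1 also passed the FDR with a smaller fold, which makes 5 of 8, where 30.9% of all genes passed. The median fold of the 8 genes was 1.38 for mRNA and 1.29 for footprints, beside 1.2 and 1.18 over all genes tested. Without the ZT04 replicate 2 library, 3 of 8 footprint curves passed the FDR (Cldn10, Cldn19 and Cgn), since Cldn3 (adjusted p = 0.0514) and Tjp1 (adjusted p = 0.0572) did not. The libraries compared below as high and low lay within 3 h of the fitted peak and at least 9 h away from it, so these groups follow from the curve and describe it.

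**Figure D3:**
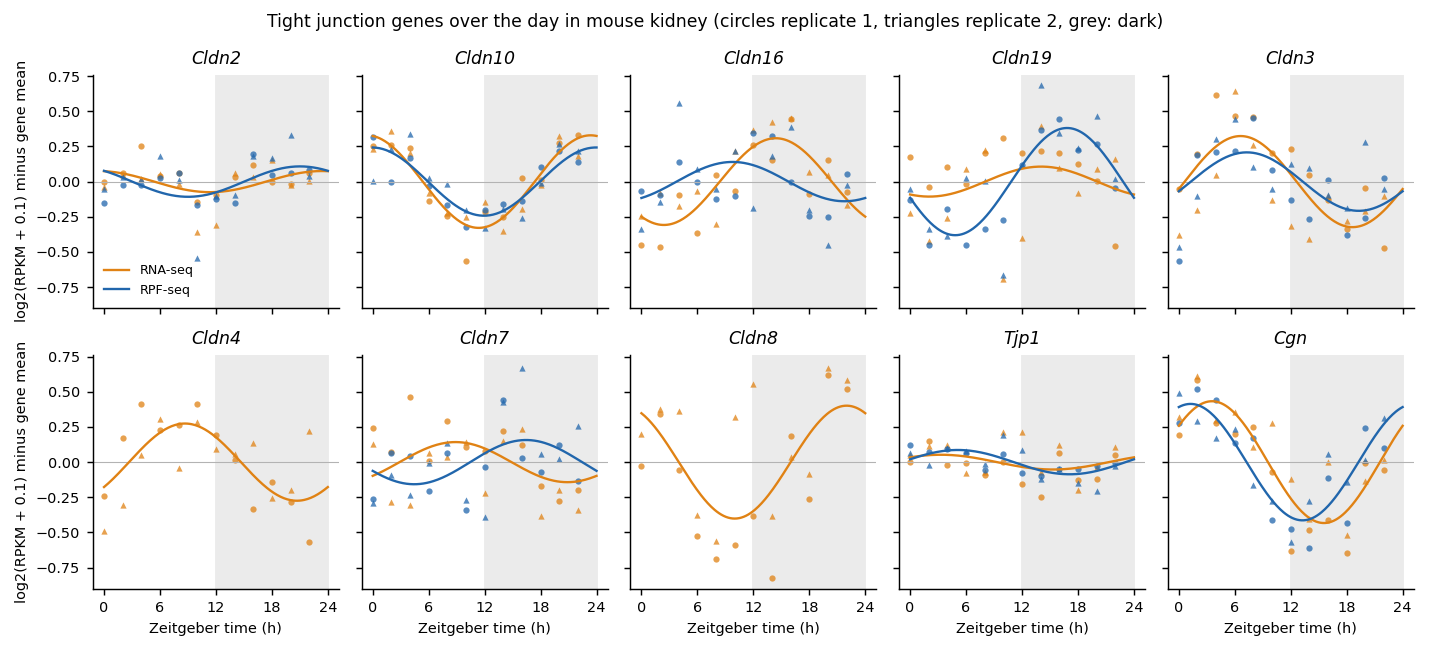
log2(RPKM + 0.1) of each library minus the mean of the gene in that assay, against Zeitgeber time, with the fitted 24-h curve, for RNA-seq (orange) and RPF-seq (blue). Cldn4 and Cldn8 have RNA-seq values only. The curves of Cgn and Cldn10 move in both assays, that of Cldn19 mainly in footprints and that of Cldn16 mainly in mRNA.

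Cldn2, the claudin of the proximal tubule, did not pass the test of a 24-h curve. Its mRNA had a fitted fold of 1.11 (adjusted p = 0.181, limma) and Cldn2 footprints one of 1.16 (adjusted p = 0.143). With a 12-h harmonic added, both passed the FDR below a fold of 1.5, the mRNA with a fold of 1.25 (adjusted p = 0.00656) and the footprints with one of 1.36 (adjusted p = 0.00811). Its lowest timepoint was ZT10 in both assays, with 249 and 215 RPKM in RNA-seq and 455 and 350 RPKM in RPF-seq. The summed level of the 8 proximal tubule markers was also lowest at ZT10 in both assays, and its timepoint means varied by 1.14 times for mRNA and 1.23 times for footprints. Relative to the mean log2 value of these markers, Cldn2 mRNA had a fold of 1.22 (adjusted p = 0.00239) and Cldn2 footprints one of 1.195 (adjusted p = 0.0545).

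Cldn10 had the most precisely timed rhythm of the claudins. Its mRNA was high around lights on and low around lights off, with values of 208 to 235 RPKM in the 6 libraries of ZT22, ZT00 and ZT02 and 124 to 166 RPKM in the 6 libraries of ZT10, ZT12 and ZT14. These groups did not overlap. The fitted fold was 1.58 (log2 0.66 ± 0.06 SE, adjusted p = 7.65e-08, limma) with a peak 23.4 h ± 0.37 (SE) after lights on. Footprints in the same libraries were 136 to 170 RPKM against 109 to 122, again without overlap, with a fold of 1.40 (adjusted p = 1.91e-05) that fell short of 1.5 and a peak near 24 h (± 0.51 SE). The footprint peak lay 0.56 h ± 0.63 (SE) after the mRNA peak, and the TE curve had a fold of 1.14 (adjusted p = 0.178).

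The Cldn16 and Cldn19 partners moved in different assays. Cldn16 mRNA was high early in the dark phase, from 10.6 to 13.0 RPKM in the 6 libraries of ZT12, ZT14 and ZT16, and low early in the light phase, from 6.86 to 8.98 RPKM at ZT00, ZT02 and ZT04, without overlap. Its mRNA fold was 1.53 (adjusted p = 3.81e-05, limma) with a peak at 14.4 h ± 0.57 (SE). Cldn16 footprints had a fold of 1.21 (adjusted p = 0.211) and were highest in the library that stands apart, with 11.7 RPKM at ZT04 replicate 2, beside 8.69 RPKM in the other pool of that time.

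Cldn19 showed the opposite arrangement. Its mRNA had a fold of 1.16 (adjusted p = 0.438) and ran from 14.5 to 25.3 RPKM at ZT12, ZT14 and ZT16 and from 14.3 to 21.7 RPKM at ZT00, ZT02 and ZT04, which overlap. Cldn19 footprints were 27.6 to 38.1 RPKM in the 6 libraries of ZT14, ZT16 and ZT18 and 17.3 to 24.1 RPKM in those of ZT02, ZT04 and ZT06, without overlap. The footprint fold was 1.70 (log2 0.76 ± 0.12 SE, adjusted p = 9.35e-05, limma) with a peak at 16.8 h ± 0.58. Without the ZT04 replicate 2 library the fold was 1.69 (adjusted p = 2.17e-04), and without the replicate 1 series it was 1.66 and no longer passed (adjusted p = 0.120).

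**Figure D4:**
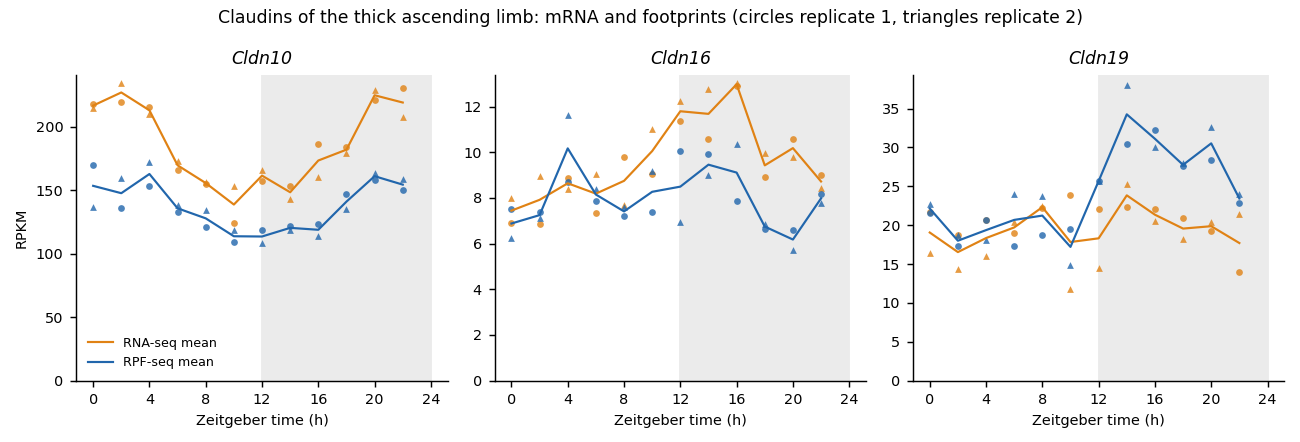
RPKM against Zeitgeber time for the claudins of the thick ascending limb, with each pool as a point and the mean of the 2 pools as a line, RNA-seq in orange and RPF-seq in blue. The value of Cldn10 merges its proximal and limb isoforms. Cldn10 falls towards ZT10 to ZT14 in both assays, Cldn16 mRNA is highest at ZT16 and Cldn19 footprints are highest at ZT14, at 34.3 RPKM on average.

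TE compares the assays directly. By both criteria the TE of 1 of the 8 genes (Cldn19) was rhythmic, against 3.74% of all genes tested, and at the FDR alone 3 of 8 (Cldn16, Cldn19 and Cgn), where 17.1% of all genes passed. The TE of Cldn19 was 1.32 to 1.60 in the 6 pools of ZT16, ZT18 and ZT20 and 0.845 to 1.18 in those of ZT04, ZT06 and ZT08, without overlap, with a fold of 1.54 (adjusted p = 0.00848, limma) and a peak at 17.7 h ± 0.80 (SE). The TE of Cldn16 had a fold of 1.496, just under the threshold (adjusted p = 0.0167), and peaked at 4.19 h ± 0.90, in the light phase, while that of Cldn19 peaked in the dark phase. Pools of Cldn16 overlapped, with 0.794 to 1.39 at ZT02, ZT04 and ZT06 and 0.610 to 0.938 at ZT14, ZT16 and ZT18. Without the ZT04 replicate 2 library the Cldn16 fold was 1.41 (adjusted p = 0.0369). With either replicate series left out, none of the 8 TE curves passed the FDR with limma, while 3 of 8 had an unadjusted p under 0.05 each time. Among the 5 markers listed for the thick ascending limb, the TE of 1 was rhythmic by both criteria and that of 2 passed the FDR. TE was not tested relative to these markers.

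The ratio of Cldn19 to Cldn16 gives the partners per coding length. In RNA-seq it ran from 1.07 to 3.14 over the 24 pools with a median of 2.08. In footprints it ran from 1.55 to 5.69 with a median of 2.88, from a mean of 1.96 at ZT04 to one of 4.99 at ZT20. The low end rested on the ZT04 replicate 2 library, without which the lowest pool was at 1.62 and the lowest mean was 2.14 at ZT10. The ratio of Cldn10 to Cldn19 ran in footprints from a mean of 3.56 at ZT14 to one of 8.48 at ZT04, and without that library the highest mean was 8.20 at ZT02. The size of this ratio depends on the merged coding lengths of both genes.

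Of the claudins named for the thick ascending limb, Cldn19 footprints peaked near the time at which the footprints of its markers were highest, while Cldn10 did not. All 5 markers had values, and their summed footprint level ran from 4778 to 7740 RPKM over the libraries, with the lowest timepoint mean at ZT04 (5068, and 4878 in replicate 1 alone) and the highest at ZT16 (7430), while their summed mRNA varied by 1.24 times between timepoint means. Ptger3, the prostaglandin E receptor of the limb, had a footprint fold of 1.94 with a peak at 17.9 h (adjusted p = 5.60e-05, limma), and Umod, the uromodulin gene that makes up most of the sum, one of 1.42 with a peak at 16.1 h (adjusted p = 3.83e-05). The other markers, Slc12a1, Egf and Kcnj1, had footprint folds of 1.18, 1.14 and 1.19, each past the FDR. The curves were also taken relative to the mean log2 value of these markers, in which each marker counts alike. The Cldn19 footprint fold was then 1.28 (adjusted p = 0.0327), which is under 1.5. The Cldn16 mRNA fold was 1.47 (adjusted p = 5.22e-05) and the Cldn10 footprint fold was 1.64 (adjusted p = 5.89e-07). With segment markers used in this way, 6 of the 8 footprint curves passed the FDR, beside 5 in the main test. Cldn16 footprints were the addition, with a fold under 1.5. The calls of Cldn19 footprints and Cldn16 mRNA therefore ended on this scale, and that of Cldn10 footprints began. The Cldn10 value also holds its proximal isoform and was set against limb markers alone, so its change on this scale cannot be assigned to the limb.

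Of the claudins of the distal segments, Cldn3 was called rhythmic in mRNA and Cldn7 in neither assay, and their peak times were not compared by a test. Cldn3 mRNA was 10.5 to 15.9 RPKM in the 6 libraries of ZT04, ZT06 and ZT08 and 8.03 to 9.88 RPKM in those of ZT16, ZT18 and ZT20, without overlap, with a fold of 1.57 (adjusted p = 6.79e-04, limma) and a peak at 6.63 h ± 0.74 (SE). Without the replicate 1 series its fold was 1.43 (adjusted p = 0.164). Cldn3 footprints had a fold of 1.33 (adjusted p = 0.0359) and a peak at 7.29 h ± 1.15, and their groups overlapped, with 18.2 to 25.9 RPKM at ZT06, ZT08 and ZT10 and 14.5 to 23.0 RPKM at ZT18, ZT20 and ZT22. The footprint peak was 0.66 h ± 1.37 after the mRNA peak.

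Cldn7 did not pass the FDR in either assay. Its mRNA fold was 1.22 (adjusted p = 0.114) with a peak at 8.88 h ± 1.57, and its footprint fold 1.24 (adjusted p = 0.158) with a peak at 16.4 h ± 1.60. Its highest footprint values were 51.7 and 51.3 RPKM at ZT14 and 60.8 RPKM at ZT16 replicate 2, where the other pool of ZT16 had 38.9. The TE of Cldn7 had a fold of 1.42 (adjusted p = 0.0546), which was 1.46 (adjusted p = 0.0463) without the ZT04 replicate 2 library. By timepoint mean Cldn7 footprints were highest at ZT14, at 51.5 RPKM. The summed footprints of the 8 principal cell markers were highest at ZT16, at 1041 RPKM on average, and lowest at ZT02, at 662 RPKM. Relative to the mean log2 value of these markers the Cldn7 footprint fold was 1.02 (adjusted p = 0.952, limma). On that scale Cldn7 mRNA passed the FDR (adjusted p = 0.0205, limma) with a fold under 1.5.

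Cldn4 and Cldn8 were tested in RNA-seq with a minimum on RNA-seq alone, an alternative chosen after the data were seen, in which 10.7% of 12404 genes were rhythmic. Of the 10 genes 5 were then called, Cldn8 being the addition, with a fold of 1.74 (adjusted p = 0.00603, limma) and a peak at 22 h ± 0.94. Its mRNA was 37.6 to 61.0 RPKM in the 6 libraries of ZT20, ZT22 and ZT00 and 23.7 to 56.3 RPKM in those of ZT08, ZT10 and ZT12, which overlap because replicate 2 at ZT10 and ZT12 had 47.9 and 56.3 RPKM beside 25.4 and 29.4 in replicate 1. Cldn4 had a fold of 1.46 (adjusted p = 0.00139), just under the threshold, with a peak at 8.68 h ± 0.79, and 12.7 to 17.5 RPKM at ZT06, ZT08 and ZT10 against 8.79 to 15.3 RPKM at ZT18, ZT20 and ZT22. The ratio of Cldn8 to Cldn4 ran from a mean of 1.77 at ZT08 to one of 5.41 at ZT20. Over 24 libraries, which share the time series, Cldn4 mRNA correlated with Cldn3 mRNA (r = 0.69) and Cldn8 mRNA with Cldn10 mRNA (r = 0.72), while Cldn4 and Cldn10 ran against each other (r = -0.57). These coefficients are descriptions of the shared time course.

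The scaffolds differed from each other. Tjp1 had the smallest fitted fold of the 8 genes in both assays, with an mRNA fold of 1.08 (adjusted p = 0.445, limma). Its footprint fold was 1.13 (adjusted p = 0.0411), with 16.9 to 18.8 RPKM at ZT04, ZT06 and ZT08 and 15.2 to 17.2 RPKM at ZT16, ZT18 and ZT20, and these groups overlapped.

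Cgn was rhythmic in both assays. Its mRNA was 4.43 to 5.91 RPKM in the 6 libraries of ZT02, ZT04 and ZT06 and 2.42 to 3.84 RPKM in those of ZT14, ZT16 and ZT18, without overlap, with a fold of 1.82 (log2 0.87 ± 0.11 SE, adjusted p = 5.70e-06, limma) and a peak at 3.56 h ± 0.50 (SE). Its footprints were 5.30 to 6.77 RPKM at ZT00, ZT02 and ZT04 and 3.03 to 4.89 RPKM at ZT12, ZT14 and ZT16, also without overlap, with a fold of 1.77 (adjusted p = 5.24e-06) and a peak at 1.26 h ± 0.47. The footprint peak minus the mRNA peak was -2.30 h ± 0.68 (SE), and it was -0.6 h with a 12-h harmonic added. The paper already shows Cgn, from these same libraries, among its examples of kidney footprints that lead their mRNA, so this is no independent result. The difference was -1.37 h in the replicate 1 series and -3.48 h in the replicate 2 series. The TE of Cgn was 1.35 to 1.60 at ZT18, ZT20 and ZT22 and 0.825 to 1.16 at ZT06, ZT08 and ZT10, without overlap, with a fold of 1.42 (adjusted p = 0.00731) and a peak at 20.1 h ± 0.78. The ratio of Tjp1 to Cgn footprints ran from a mean of 2.87 at ZT02 to one of 5.46 at ZT12. Of the 3710 stretches of 26 bases in the Cgn coding sequences, 34.0% also occur in transcripts of BC021767, a transcribed pseudogene on the same chromosome, so reads there cannot be assigned with certainty. For the other 9 genes at most 1.82% of such stretches were shared with another gene.

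**Figure D5:**
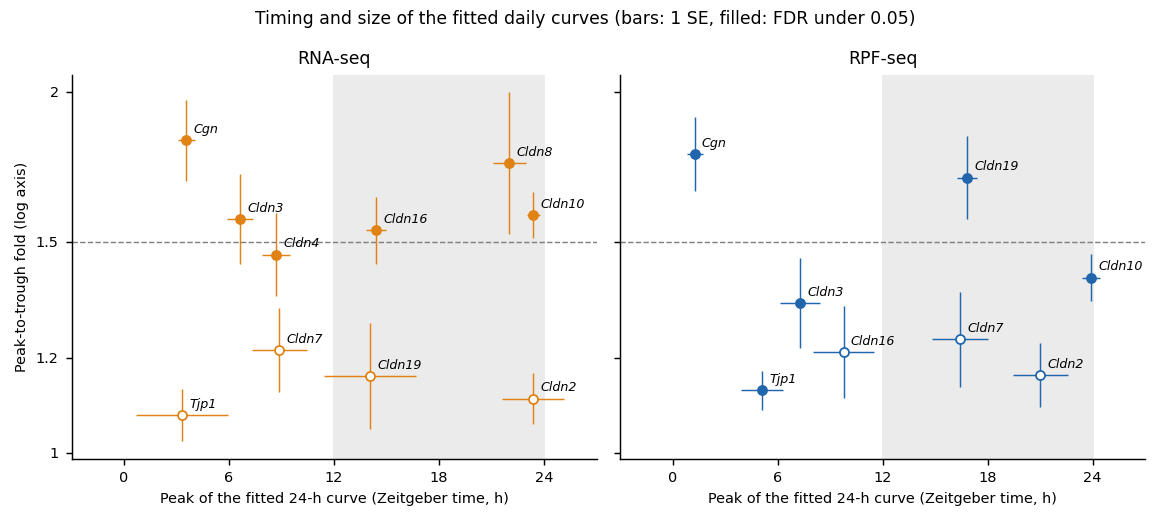
Peak-to-trough fold (log axis) against the peak time of the fitted 24-h curve in RNA-seq and in RPF-seq, with bars of 1 SE, filled points for an FDR under 0.05, the 1.5-fold threshold dashed and the dark phase in grey. Cldn16 lies at a fold of 1.53 for mRNA and 1.21 for footprints, and Cldn19 at 1.16 and 1.70.

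Genes with a time course most like that of a rhythmic member were ranked by Pearson r of log2(RPKM + 0.1) over 24 libraries among the 11862 other genes tested. For Cldn10 mRNA they were Clpx (r = 0.92), Osbpl8 (0.91) and Slc16a1 (0.90), and for Cldn3 mRNA C1qtnf1 (0.93), Fzd7 (0.88) and Dact2 (0.85). For Cldn16 mRNA they were Ppme1 (0.84), Slain2 (0.83) and Prnp (0.82), and for Cgn mRNA H2afy (0.89), Sept11 (0.89) and Svil (0.88). Cldn19 footprints were most like those of Abcg1 (0.87), Slc23a1 (0.85) and Inpp5b (0.84), and Cgn footprints like those of Acmsd (0.92), Itgb6 (0.92) and Ddc (0.90). All of these values share the same libraries and the same daily cycle.

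The other genes of the tight junction gave the surroundings of these 10. Of 17 further claudins, 5 were tested. Cldn1, a barrier claudin, was rhythmic in both assays, with an mRNA fold of 1.72 (adjusted p = 5.07e-05, limma) and a footprint fold of 1.74 (adjusted p = 2.42e-05) that peaked at 0.861 h and 0.928 h. Cldn5, the claudin of endothelium, had an mRNA fold of 1.54 (adjusted p = 0.00189) with a peak at 4.62 h and a TE fold of 1.59 (adjusted p = 0.0172), and its footprints were not called. The other 3 claudins tested were called in neither assay. At the FDR alone, 3 of the 5 passed in RNA-seq and 1 in RPF-seq. Over all genes tested, 48.6% passed the FDR in RNA-seq and 30.9% in RPF-seq. By both criteria 10.2% and 7.58% of all genes were called. Of 13 other membrane proteins tested, which include occludin and the junctional adhesion molecules, none was called in either assay by both criteria and 5 passed the FDR in each assay. Of 25 other scaffolds and polarity proteins, 1 was called in RNA-seq, the actin regulator Micall2 with a fold of 1.98 (adjusted p = 1.89e-05), and 1 in RPF-seq, the small GTPase Rab13 with a fold of 1.55 (adjusted p = 0.00557), while 14 and 13 passed the FDR alone.

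The same lists were also read by TE. Of the 25 scaffolds and polarity proteins, 9 were at least 1.5-fold below the median gene and 1 above it, with a median log2 difference of -0.38. Over all genes tested, 26% were below and 20.6% above by the same rule. Among the low ones were Prkcz, an atypical protein kinase C of the polarity complex (-1.85 ± 0.03 SE), Magi3 (-1.27 ± 0.03) and Amotl1 (-1.20 ± 0.03), and the one above was Pard6b (0.70 ± 0.04). Of the 5 further claudins, 3 were above (Cldn1 by 1.08, Cldn15 by 0.87 and Cldn5 by 0.69 on the log2 scale) and none below. The 13 membrane proteins held 4 above, led by Cxadr (1.09 ± 0.03) and F11r (0.91 ± 0.02), and 3 below, with Ildr1 lowest (-0.92 ± 0.05). Markers above were 5 of 8 for the proximal tubule, 6 of 8 for the principal cell, 2 of 5 for the thick ascending limb and 1 of 6 for the intercalated cell, with none below. The paper states that shorter coding sequences had higher TE in liver, and a part of coding length in these differences was not tested.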

How the data were processed

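RNA-seq and RPF-seq were made from each of 24 kidney lysate pools. The authors trimmed reads with cutadapt, kept reads of 26 to 35 bases for RPF-seq and 21 to 60 for RNA-seq, mapped them with Bowtie2 2.2.1 and TopHat2 2.0.11 (GRCm38.p2), normalised coding-sequence counts by upper quantiles with edgeR and deposited RPKM values, 1 for each gene in a library, leaving out genes under an RPKM cutoff. A change in total mRNA per cell cannot be seen in such values, and no count model was fitted to them. Reads per library were recovered as RPKM times coding length in units of the smallest step; at least 98.4% of the values checked in a library were whole within 0.1. Symbols were matched for 12849 of 12927 identifiers. Values were transformed to log2(RPKM + 0.1), a scale that understates changes of low genes, and tested with limma 3.58.1 in R 4.3.3 (moderated F test of 24-h cosine and sine terms, Benjamini-Hochberg over all genes tested). TE was tested on the log2 ratio within pools. Level order was tested by sign flips in Python 3.11.15 with numpy 2.4.6. Standard errors of peaks come from the delta method. p-values rest on pools of 2 mice. In the curve tests the spread also holds departures of timepoint means from the curve. In the tests of level, which join all timepoints, it also holds the daily course. The rhythm tests of mRNA and footprints were checked on simulated data. Named were the 10 members, every other tight junction gene called, segment markers and the 3 genes most like a called member. Members and lists were chosen with earlier results of these data known. Alternatives covered pseudocount, filter, FDR, fold, model, normalization, replicate block and left-out replicates.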

Additional observations from a re-analysis of the deposited data

Results flagged for a closer look

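Footprints and mRNA differed over the day for 3 of the 8 genes, by the test of the ratio itself (limma, FDR under 0.05), where 17.1% of all genes tested passed. None of the 8 passed with either replicate left out or with 12 timepoint means. The fold of the TE curve was 1.54 for Cldn19, 1.5 for Cldn16 (1.496 before rounding) and 1.42 for Cgn. With 2 pools per timepoint, no test of single samples within a timepoint was possible.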

How the results depend on the processing

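Of the 4 genes called in RNA-seq, Cldn10 and Cgn were called under all 15 alternatives. Cldn3 lost its call with 12 timepoint means (fold 1.82, adjusted p = 0.05003) and without replicate 1 (fold 1.43), and Cldn16 lost its call with a pseudocount of 1 (fold 1.48) and relative to segment markers (fold 1.47). In RPF-seq the number of genes called was 2 of 8 in the full data, 5 without a fold cutoff, and 1 to 2 with a replicate left out. Cgn footprints were called in each of these, and Cldn19 was lost without replicate 1 (fold 1.66, adjusted p = 0.120) and relative to segment markers (fold 1.28). In TE the count was 1 of 8 in the full data, 2 with a pseudocount of 0.01 or quantile normalization, 3 without a fold cutoff or with a 12-h harmonic, 0 with 12 timepoint means and 0 to 0 with a replicate left out; with 12 timepoint means 2 of 8 had an unadjusted p under 0.05 and with a replicate left out 3 of 8 each time. Neighbouring pairs that differed in TE numbered 4 of 7, and 2 to 2 with a replicate left out. Without replicate 2, Tjp1 and Cldn19 mRNA were no longer separated (adjusted permutation p = 0.330). Nor were Cldn19 and Cldn3 footprints (adjusted permutation p = 0.0853). Pairs that reversed were not separated in the full data, with log2 differences from -0.043 to 0.25 for Cldn3 against Cldn16 mRNA, from -0.086 to 0.089 for Cldn3 against Cldn2 TE and from -0.17 to 0.19 for Cldn19 against Cgn TE with a replicate left out. The footprint peak minus the mRNA peak ran from -0.21 h to 2.22 h for Cldn3, from 0.15 h to 0.85 h for Cldn10 and from -3.48 h to -1.37 h for Cgn with a replicate left out, and was -1.7 h for Cldn10 and -0.6 h for Cgn with a 12-h harmonic. The cause of these shifts was not tested.

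Over all genes the RNA-seq count of 1210 was 781 with a pseudocount of 1, 5761 without a fold cutoff, 2291 with 12 timepoint means and 722 to 1430 with a replicate left out. The RPF-seq count of 899 was 590, 3663, 1132 and 370 to 853 under the same settings. The TE count of 444 was 321, 2028, 98 and 0 to 2, and 215 at an FDR under 0.01 and 727 with AIC. TE against the median gene called the same 3 genes under all 8 alternatives. Replicate differences correlated between timepoints with a mean r of 0.0291 in RNA-seq (-0.181 to 0.48, 13 of 66 pairs above 0.1) and 0.0197 in RPF-seq (-0.204 to 0.185, 10 of 66), so the numbers were not taken to pair the samples; Cldn8 mRNA and Cldn19 TE were nevertheless higher in replicate 2 at 11 of 12 timepoints each. With a replicate block 4 of 8 genes were called for mRNA, 2 for footprints and 1 for TE. The alternatives without the ZT04 replicate 2 library and with a minimum on RNA-seq alone were chosen after seeing the data. Precision is limited by reads for Cldn16 and Cldn3 and by 2 pools per time. Isoforms merged for Cldn10 and Cldn19 limit both the precision and the level itself.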
